A study of Mus musculus with 12 samples.

Results

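The libraries described here are the 3 made from epididymal white adipose tissue (EWAT), the fat pad that lies along the epididymis in the abdomen of male mice. They were chosen by their tissue label and are 3 of 12 libraries in all. The other 9 came in groups of 3 from interscapular brown fat (BAT), inguinal white fat (IWAT) and retroperitoneal white fat (RWAT). Every library was from wild type male C57BL/6J mice, 6 to 10 weeks old per the labels and on a high-fat diet, and every depot was labelled as denervated by surgery. The controls of the comparison therefore carried the same operation and diet as EWAT, and the effects of denervation and of the diet were not tested. Since no label states that the replicates of a depot came from different mice, every p-value below reflects spread among libraries, which may be technical.

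Epididymal fat is a visceral depot. It is wrapped by mesothelium, a simple epithelium that lines the body cavity and expresses keratins and the transcription factor WT1, and its own precursors include cells that once expressed Wt1. Subcutaneous and brown fat carry other developmental factors of trunk and limb mesoderm, such as TBX15. In obesity, epididymal fat is also known for macrophages that gather around dying adipocytes.

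The libraries held 12933516 to 21106554 counts, and 3 counts, taken as the floor of detection, correspond to 0.142 to 0.232 CPM, the unit in which counts are scaled to library size. Several libraries stood apart. EWAT 1 had a summed level of the 20 adipocyte markers of 3770 CPM, against 17000 and 14300 CPM in EWAT 2 and EWAT 3. In EWAT 2 the small cytoplasmic RNA gene Rn7s1 took 7.632% of counts. Among the others, Ucp1, the defining gene of brown fat, stood at 1490 CPM in BAT 1 but at 0.253 and 1.7 CPM in BAT 2 and BAT 3, so this marker went against the label of those 2 libraries. The 15 skeletal muscle markers summed to 712, 19.1 and 3720 CPM in RWAT 1 to 3 and to 8.67 to 21.9 CPM in EWAT. All 20 adipocyte markers were detected in EWAT. Of 19 markers of epididymal epithelium 12 were at 0 in all EWAT libraries, and their sum, 3.47 to 7.19 CPM, lay in the same range as the 3.47 to 7.28 CPM of the other depots.

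The main question was which genes set EWAT apart from the mean of BAT, IWAT and RWAT, each depot weighted equally. A gene is called here where the edgeR quasi-likelihood test gave a Benjamini-Hochberg adjusted p under 0.05. Where the call of a single gene is said below to hold or end without a library, the call against the mean is meant. Of 18942 genes tested, 217 were called (1.15%), 134 higher in EWAT (0.707%) and 83 lower (0.438%), while the median log2 fold change of all genes was -0.01. At an unadjusted p under 0.05, 1674 genes (8.84%) were higher and 1576 (8.32%) lower, the background for the unadjusted counts given below. Of the same 18942 genes, DESeq2 called 462 higher and 580 lower and limma-voom 47 and 19, the background for list counts by these tools. In 82 of the 134 and 72 of the 83, the 3 EWAT libraries did not overlap with the other 9, against 1.15% and 1.27% of all genes tested. The calls and the overlap draw on the same values, so the larger share among called genes is no separate result. Lack of overlap was also a condition for naming the most changed genes below, and for those it is no further result. The contrast rested unequally on the other depots. Against IWAT alone 2082 genes were called (11%), 1045 higher (5.52%) and 1037 lower (5.47%). Against BAT 27 were called (0.143%), 10 higher (0.0528%) and 17 lower (0.0897%), and against RWAT 1 (0.00528%). Of the called genes, 128 of 134 and 82 of 83 were also called the same way against IWAT, 10 and 14 against BAT, and 0 and 1 against RWAT. The median log2 fold change of the 134 genes was 2.76 against IWAT, 1.91 against BAT and 1.33 against RWAT, and that of the 83 was -2.58, -2.31 and -1.66. RWAT was the depot next to EWAT for 79.9% of the 134 and 81.9% of the 83, against 53.7% and 56.5% of all genes whose mean was highest or lowest in EWAT. The comparisons share the EWAT libraries. The count against the mean fell to 37 without EWAT 1 (33 higher and 4 lower), 62 without EWAT 3 (56 and 6) and 70 without IWAT 2 (49 and 21), to 101 to 134 without EWAT 2, IWAT 1, BAT 1, BAT 3, RWAT 1 or RWAT 3, and was 366 without IWAT 3 and 395 without BAT 2. Against BAT it was 247 without BAT 2 (34 higher and 213 lower) and 46 without RWAT 1 or RWAT 2, and 3 to 13 without BAT 1, BAT 3, IWAT 2 or any EWAT library. Against IWAT it was 55 without IWAT 2, 263 without EWAT 3, 304 without IWAT 1, 575 without EWAT 1 and 1353 without RWAT 1.

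**Figure D1:**
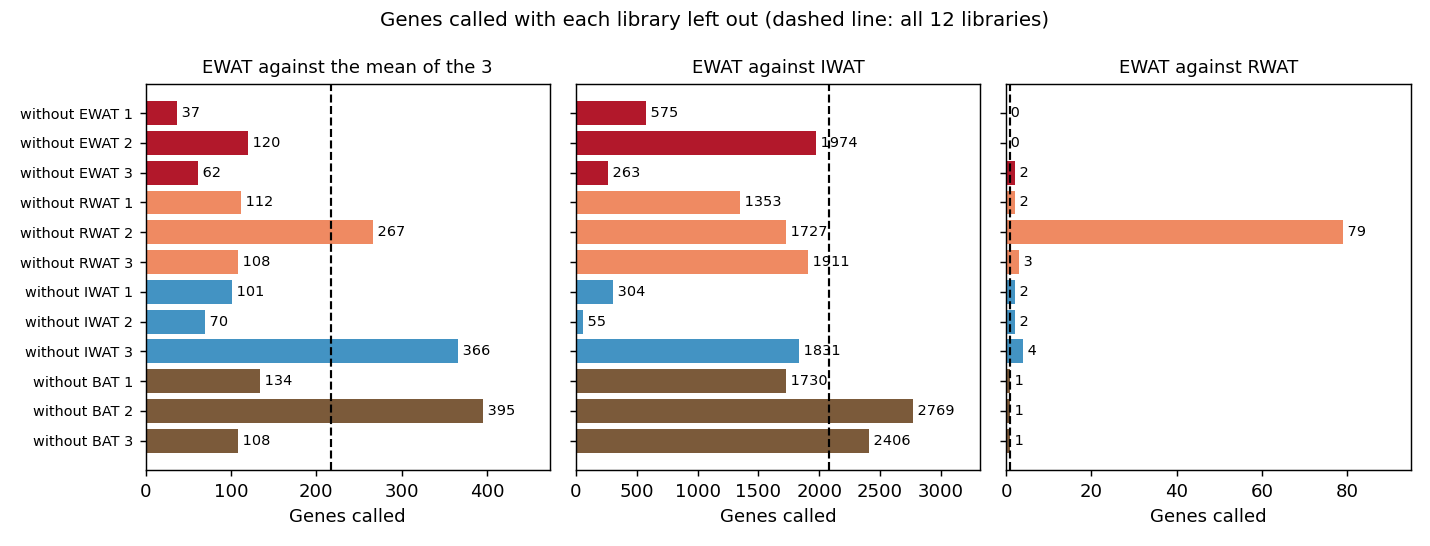
Number of genes called (horizontal axis) in EWAT against the mean of the other depots, against IWAT and against RWAT when each library (rows, coloured by depot) is left out; the dashed line is the count with all 12 libraries. Without EWAT 1 the count against the mean is 37 in place of 217, and without RWAT 2 the count against RWAT is 79 in place of 1.

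Developmental transcription factors were among the genes lower in EWAT. Tbx15, a T-box factor of dorsal and limb mesoderm (chr3:99240381-99354259, GRCm38), stood at 0.19, 0.285 and 0.147 CPM in EWAT 1 to 3, a level close to the floor. In the other 9 libraries it ranged from 4.82 in RWAT 2 through a median of 19.7 to 23.6 CPM. The groups did not overlap, and the mean over the other depots was 84.7 times the EWAT mean (log2 fold change -6.33 ± 0.52 SE, edgeR adjusted p = 0.000823). Tbx15 was also the only gene called the same way against the mean and against each depot (against RWAT -5.80 ± 0.54, edgeR adjusted p = 0.00427). The call against RWAT ended without EWAT 1 or EWAT 2, where 0 genes were called, and limma-voom also called 0. Zfhx4, a large zinc finger and homeobox protein (chr3:5218526-5415857), was at 7.62, 10.2 and 7.33 CPM in EWAT against 35 to 112 CPM, with a median of 45.7, elsewhere (-2.69 ± 0.26, edgeR adjusted p = 0.00139). Every EWAT library lay below all others, a condition of the rule that named this gene. The difference of Zfhx4 from RWAT alone missed the threshold (edgeR adjusted p = 0.0616).

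Of the 18 tested genes in a list of 26 factors of trunk, limb and brown fat, 5 were called lower and 0 higher, with a median log2 fold change of -2.1. The list was drawn up with earlier results on these libraries known. Tbx15, Meox2, Irx2 and Lhx8 were among them. Meox2, a homeobox factor of somites and limb muscle, was at 8.05, 7.48 and 5.57 CPM in EWAT and between 12.6 and 23.3 CPM in the other 9 libraries, without overlap. Lhx8 was undetected in all 3 EWAT libraries (0 counts, which allow up to 0.0509 CPM over the group). It stood at 7.96 to 10.6 CPM in BAT and at 0 in RWAT 3, so the mean of the other depots was at least 83.9-fold higher while RWAT 3 overlapped with EWAT. Irx2 overlapped as well, with 0.238 CPM in EWAT 1 and 0.182 to 0.773 CPM in RWAT. Shox2, a factor of the proximal limb, was at 0.114 to 0.428 CPM in EWAT and 0.636 to 26 CPM elsewhere, but was not called (edgeR adjusted p = 0.0675). Ebf3, a helix-loop-helix factor named here after its values were seen, was lower at 3.76 to 6.19 CPM against 9 to 35.2 CPM (edgeR adjusted p = 0.00792). The calls of Tbx15, Zfhx4 and Ebf3 against the mean held with any 1 library left out. That of Meox2 ended without EWAT 1 or EWAT 3 (edgeR adjusted p up to 0.0793). Those of Irx2 and Lhx8 ended without any of 8 and 7 libraries, among them each EWAT library.

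The Hox genes, which mark position along the body axis, gave 0 calls against the mean by edgeR, DESeq2 or limma-voom among 9 anterior, 11 central and 6 posterior genes tested, with 1 posterior gene lower at an unadjusted p under 0.05. This mean includes BAT, where Hoxa9, Hoxa10 and Hoxc10 were at or near 0. Against the mean of IWAT and RWAT alone all 3 were called lower, by -3.45, -4.20 and -4.78 on the log2 scale (edgeR adjusted p = 0.0146, 0.0134 and 0.0134), and Hoxa9 was also called without IWAT 3 (edgeR adjusted p = 0.0464). Against IWAT, 3 of the 6 posterior genes were called lower (median log2 fold change -2.9). Hoxc10 was at 0.238, 0.171 and 0.293 CPM in EWAT, 4.94 to 16.3 CPM in IWAT, 3 to 6.33 CPM in RWAT, and 0 in all BAT libraries. Hoxa9 was at 0.4 to 0.762 CPM in EWAT against 2.59 to 13.5 CPM in IWAT, and Hoxa10 at 0.381 to 0.488 against 4.71 to 23.6 CPM. For these 3 genes every EWAT library lay above BAT and below IWAT and RWAT. Against RWAT their differences were not called (edgeR adjusted p = 0.192 for each). Hoxc8, a central gene, was at 7.24, 15 and 8.84 CPM in EWAT, inside the range of the other libraries (2.56 to 46.4 CPM).

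Some genes of interstitial progenitors were also lower. These fibroblast-like cells, found in the connective tissue between fat lobules, are marked by Dpp4, which encodes a surface peptidase, and Pi16, which encodes a secreted protein. Of 20 progenitor genes tested, 3 were called lower and 0 higher (median log2 fold change -0.68). Pi16 was at 4.48, 8.91 and 3.47 CPM in EWAT and at 19.2 to 567 CPM, with a median of 135, in the other libraries (-4.89 ± 0.85, edgeR adjusted p = 0.0269). Dpp4 was at 4, 8.91 and 11.6 CPM against 14.4 to 161 CPM (-2.91 ± 0.53, edgeR adjusted p = 0.0323). Ly6a, which encodes the stem cell antigen Sca-1, was at 42.9, 44 and 55.2 CPM against 87.2 to 449 CPM (-2.11 ± 0.32, edgeR adjusted p = 0.0158). EWAT did not overlap with the other depots for any of these genes, and RWAT 2 was the nearest library in all of them. Cd34, at 55.2 to 85.7 CPM against 97 to 388 CPM, just missed the threshold (edgeR adjusted p = 0.0517), and 6 of the 20 genes had a positive fold change. The calls of Pi16, Dpp4 and Ly6a each ended without any 1 of the EWAT libraries. The call of Pi16 ended also without IWAT 2, and that of Dpp4 without BAT 3, IWAT 1, IWAT 2, RWAT 1 or RWAT 3.

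The matrix peptidases Mmp3 and Mmp2 were lower, 2 of 27 tested collagen and matrix genes, and 0 were higher, beside a list median of -0.13. Mmp3, stromelysin 1, was at 0.667, 0.856 and 1.27 CPM in EWAT against 5.31 to 65.4 CPM (-4.89 ± 0.71, edgeR adjusted p = 0.015). Mmp2, gelatinase A, was at 74, 62 and 31.4 CPM against 84.6 to 227 CPM. Among the other genes lower in EWAT, Pcdh20, a protocadherin, was at 0 to 0.114 CPM against 1.18 to 24.1 CPM, and Akr1c18, a hydroxysteroid dehydrogenase that inactivates progesterone, had counts in EWAT 2 alone (0.285 CPM) against 0.773 to 22.2 CPM. Apod, which encodes a lipocalin, was at 0.619 to 1.71 CPM against 3.82 to 127 CPM, and Islr2 at 0.143 to 1.37 against 2.36 to 50.7 CPM. Efhd1, Clip4, Cadm3, Radil and Ly6c1 completed this group, with mean levels 5.99 to 16 times higher in the other depots. Akr1c18, Ly6a and Ly6c1 belong to families of near-identical genes, so their counts are uncertain where reads could be split. The calls of Mmp3, Pcdh20, Islr2, Radil and Ly6c1 ended without EWAT 1 or EWAT 3, that of Akr1c18 without any EWAT library or IWAT 2, and those of Mmp2, Apod, Efhd1, Clip4 and Cadm3 without any of 8 or 9 libraries, each EWAT library among them.

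**Figure D2:**
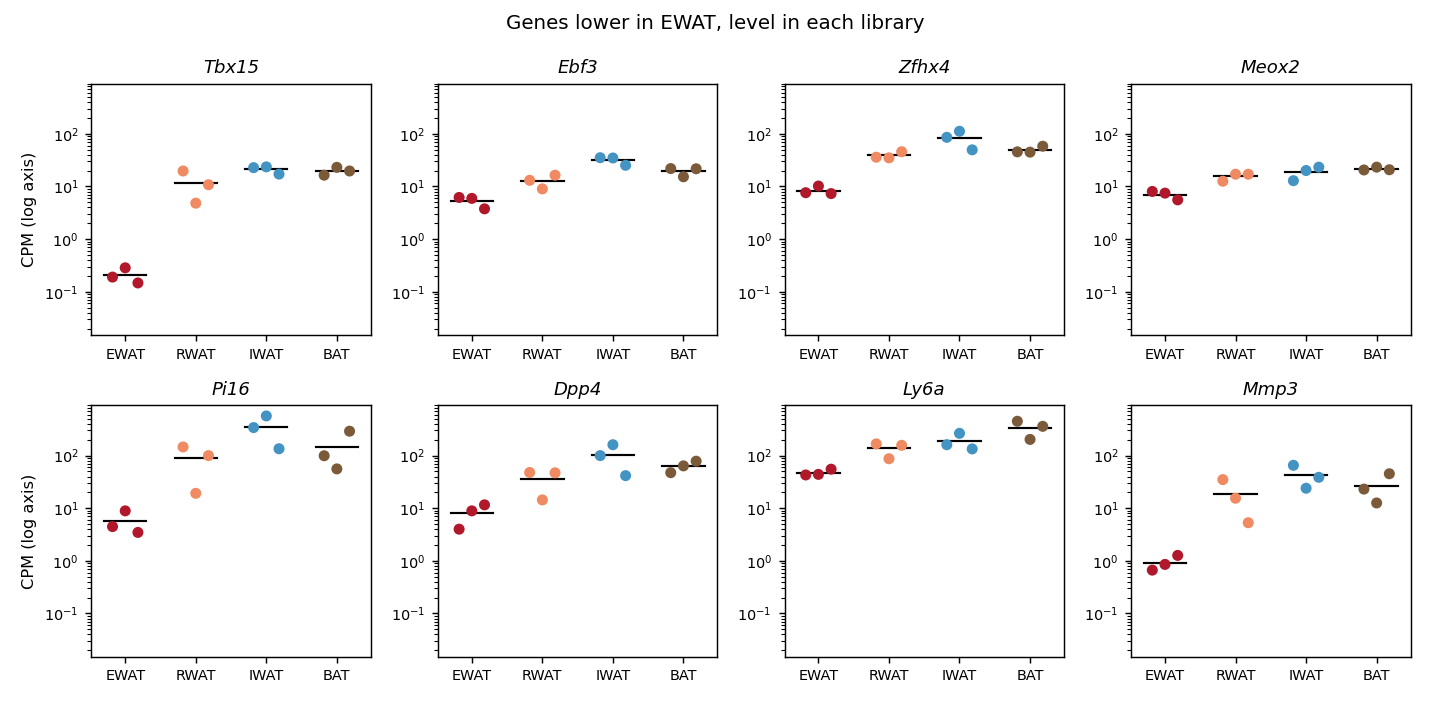
CPM (log axis) of 8 genes lower in EWAT, 1 point for each library and a line at the depot mean, replicates 1 to 3 from left to right. The EWAT points lie below all others in every panel; for Pi16 they reach 8.91 CPM against 19.2 CPM in RWAT 2, the lowest of the other libraries.

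Mesothelial genes were higher in EWAT. Of 18 mesothelial markers tested, 8 were called higher in EWAT and 0 lower (Krt8, Krt18, Wt1, Upk1b, Slpi, Bnc1, Nkain4 and Krt7), with a median log2 fold change of 2.8 and 17 of 18 values above 0. DESeq2 called 13 of the 18 higher against the mean and limma-voom 2. Against RWAT alone, edgeR called 0 of them and the median was 1.0. Krt8 and Krt18 encode the paired keratins of simple epithelia. They are neighbours transcribed from opposite strands, and the 250 bases before each RefSeq start (GRCm38.p6) are shown because these 2 genes were both higher, Krt8 from chr15:102004343-102004592 on the minus strand and Krt18 from chr15:102027966-102028215 on the plus strand. By GENCODE the genes begin 140 bases (Krt8) and 36 bases (Krt18) before the RefSeq starts, so each window ends inside the annotated gene. Capitals mark matches to the searched motifs.
Krt8: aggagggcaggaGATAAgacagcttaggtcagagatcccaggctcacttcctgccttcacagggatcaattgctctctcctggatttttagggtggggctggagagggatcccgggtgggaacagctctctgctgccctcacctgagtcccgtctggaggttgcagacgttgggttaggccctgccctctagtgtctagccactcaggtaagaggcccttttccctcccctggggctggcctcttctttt
Krt18: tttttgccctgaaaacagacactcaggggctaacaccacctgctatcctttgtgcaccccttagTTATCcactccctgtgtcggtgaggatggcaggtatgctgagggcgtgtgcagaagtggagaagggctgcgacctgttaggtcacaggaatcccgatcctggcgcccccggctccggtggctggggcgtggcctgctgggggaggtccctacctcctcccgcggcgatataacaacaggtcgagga
The motifs searched on both strands were GATAA (GATA factors), GGTGTGA (T-box), GCGTGGG (WT1 and EGR) and CCAAT. Each window held 1 match, to GATAA, which in Krt18 reads TTATC on the strand shown. Among all tested genes with a window, 15.2% of 12085 held GATAA, against 19.4% of the 93 windows of genes called higher and 17.5% of the 57 of genes called lower. The T-box motif was in 2.94% of all windows, 2.15% of the higher and 0% of the lower set, the WT1 and EGR motif in 6.82%, 7.53% and 3.51%, and CCAAT in 36%, 29% and 33.3%. No window is shown for Tbx15, Zfhx4, Wt1 and Myrf. A match describes letters and is not a binding site.

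Krt8 was at 10.8, 14.8 and 37.1 CPM in EWAT. It was at 0 to 0.746 CPM in BAT and IWAT and at 0.242, 6.27 and 2.96 CPM in RWAT 1 to 3 (log2 fold change 5.67 ± 0.59, edgeR adjusted p = 0.000823). Krt18 followed the same order of libraries in EWAT, with 4, 4.34 and 14.3 CPM against 0 to 1.64 CPM elsewhere (5.12 ± 0.59, edgeR adjusted p = 0.00139). Wt1, the zinc finger factor of mesothelium and gonadal ridge (chr2:105126529-105173616), was at 16.7, 19.8 and 16.4 CPM, 0 to 0.493 CPM in BAT and IWAT, and 0, 8.05 and 7.2 CPM in RWAT (5.29 ± 0.74, edgeR adjusted p = 0.00509). EWAT did not overlap with the other depots for any of the 3 genes, and RWAT 2 and RWAT 3 came next. Where a depot holds 3 counts or fewer, as IWAT does for Krt8 and Wt1 and BAT for Krt18, the fitted fold change depends on the prior count. By mean CPM, EWAT was 17, 18.6 and 9.73 times the mean of the other depots. Wt1 has an antisense partner, Wt1os, which was called higher too. Whether counting used strand is not given in the sources used here, so reads of the 2 cannot be told apart.

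Upk1b, a uroplakin, was at 6 to 19.9 CPM in EWAT against 0 to 5.41 CPM. Msln and Upk3b, common markers of mesothelium, were at 2.23 to 10.7 and 2.95 to 17.5 CPM in EWAT, up to 12 and 15.8 CPM in RWAT 3, and at most 1.63 CPM in BAT and IWAT. Neither was called (edgeR adjusted p = 0.0863 and 0.0611). The summed level of the 18 markers was 205, 151 and 262 CPM in EWAT 1 to 3, 11.6 to 39 CPM in BAT and IWAT, and 24.3, 99 and 173 CPM in RWAT 1 to 3, so RWAT 3 lay inside the EWAT range. In bulk tissue, more cells of a type and more RNA per cell cannot be told apart. Of the list, 4 markers did not overlap between EWAT and the other 9 libraries: Krt8, Krt18, Wt1 and Upk1b. Slpi, Nkain4 and Krt7 overlapped with RWAT, at 11.3 to 114, 0.905 to 3.27 and 2.11 to 6.2 CPM in EWAT and up to 31.2, 2.88 and 2.8 CPM there. Bnc1 overlapped with the other libraries too, at a mean of 4.37 CPM in EWAT and 0.61 CPM over the other depots. The calls of Krt8, Krt18 and Wt1 held with any 1 library left out. Those of Upk1b ended without EWAT 3 or IWAT 2, of Slpi without EWAT 1 or IWAT 2, of Bnc1 without EWAT 2, EWAT 3 or IWAT 2, of Nkain4 without any of 5 libraries and of Krt7 without any of 9.

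Transcription factors of the coelomic lining and viscera were divided. Of 14 tested genes in a list of 24, 4 were higher (Hand2, Wt1, Gata5 and Gata6) and 1, Osr2, was lower, with a median of 0.51. Hand2, a helix-loop-helix factor of lateral mesoderm and also of sympathetic neurons, was at 1.81, 3.31 and 1.07 CPM in EWAT and at most 0.227 CPM elsewhere, at or near the floor (5.14 ± 0.59, edgeR adjusted p = 0.000823). Gata5, a GATA factor of the epicardium and gut, was at 1.52, 2.28 and 4.35 CPM against 0 to 0.909 CPM (3.86 ± 0.55, edgeR adjusted p = 0.006). Gata6 was at 20.5, 18.9 and 16.9 CPM against 3.96 to 12.5 CPM. None of the 3 overlapped between EWAT and the other depots, and the calls of Hand2 and Gata5 held with any 1 library left out, while that of Gata6 ended without any of 7. Tcf21, an epicardial and visceral fat factor, was at 0.476, 1.71 and 0.782 CPM in EWAT, 0 in all BAT and IWAT libraries and 1.21 CPM in RWAT 3, and was not called (edgeR adjusted p = 0.0851). Osr2, a factor of the intermediate mesoderm, was at 0.0488 to 0.285 CPM in EWAT and overlapped with RWAT, and its call ended without any of 9 libraries. The homeobox gene Alx1, chosen after its values were seen, was at 1.03 to 1.81 CPM in EWAT (79 counts), with 1 count in the other 9 libraries together (edgeR adjusted p = 0.00611).

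**Figure D3:**
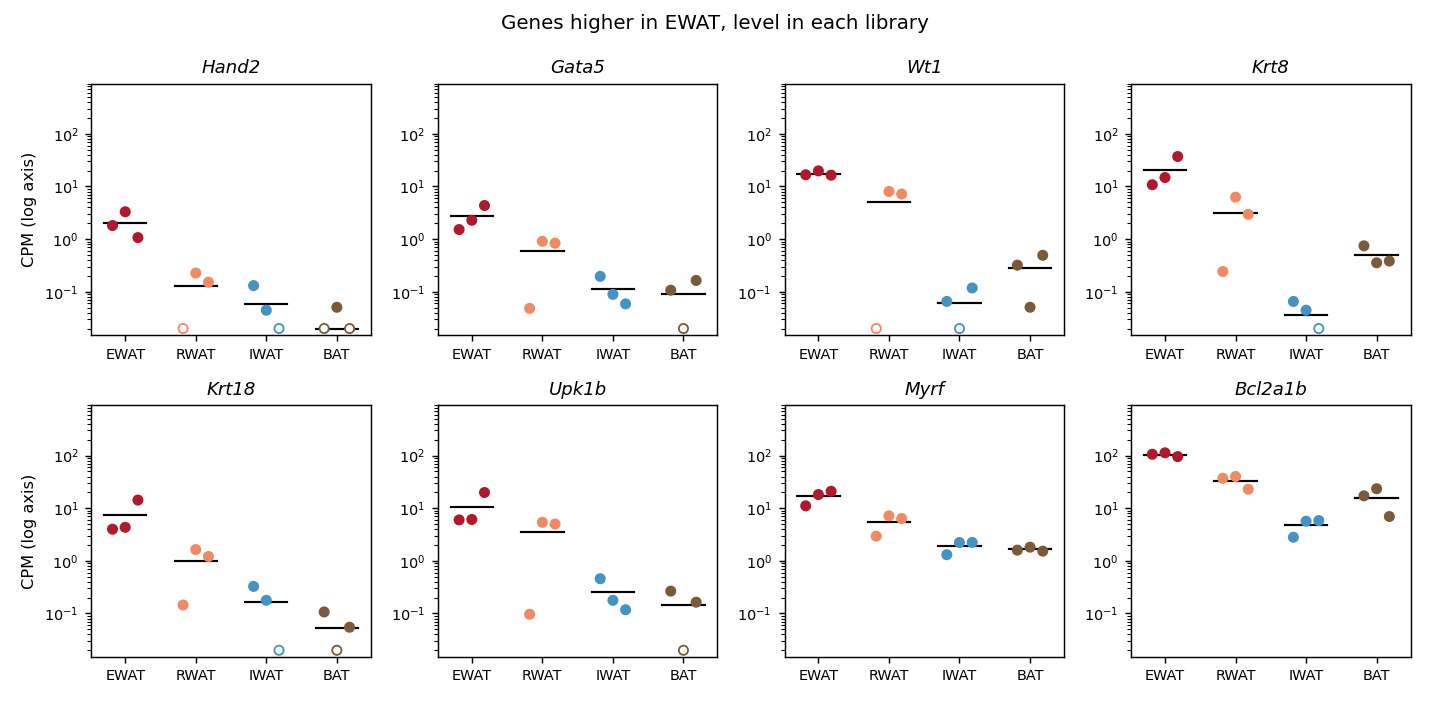
CPM (log axis) of 8 genes higher in EWAT, 1 point for each library and a line at the depot mean, replicates 1 to 3 from left to right; open points are libraries with no counts, drawn at 0.02. EWAT lies above all other libraries in each panel, and RWAT 2 and RWAT 3 come next for Wt1 (8.05 and 7.2 CPM) while RWAT 1 is at 0.

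Beyond these lists, Cdh3, which encodes P-cadherin, was at 23, 17.7 and 23.6 CPM in EWAT against 0.164 to 7.82 CPM (4.42 ± 0.66, edgeR adjusted p = 0.0158). Rpp25, a subunit of ribonuclease P, was at 4.86 to 7.36 CPM against 0 to 2.68 CPM. Myrf, a membrane-bound transcription factor (chr19:10208272-10240748), was at 11.1, 18.2 and 21 CPM against 1.31 to 7.18 CPM and was called against BAT and IWAT as well (2.69 ± 0.27 against the mean, edgeR adjusted p = 0.00139). None of these overlapped, which the rule that named them required. Named after their values were seen, the desmosomal cadherin gene Dsg2 (2.29 to 5.13 CPM against 0.11 to 0.955), the serotonin receptor gene Htr2b (13.6 to 18 against 1.77 to 10.5) and the basement membrane collagen gene Col4a6 (4.86 to 6.25 against 0.253 to 2.5) were likewise called against the mean, BAT and IWAT. In all, 10 genes were called higher and 13 lower in these 3 contrasts. Against the mean, the call of Cdh3 ended without EWAT 1 or EWAT 3. Those of Rpp25, Myrf, Dsg2, Htr2b and Col4a6 against the mean held with any 1 library left out. Without BAT 1 or BAT 3, edgeR called 0 genes higher against BAT, so the calls of Myrf, Dsg2, Htr2b and Col4a6 there ended.

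Some macrophage genes were higher. Of 24 general macrophage genes, 3 were called higher (Msr1, Cx3cr1 and Lyz2) and 0 lower, with a median of 0.58, and of 19 genes of lipid-associated macrophages 2 were higher (Spp1 and Cd9) and 0 lower, with a median of 1.1. Against IWAT alone, 12 and 7 members were higher and 2 and 0 lower. The summed level of the general list was 12700, 13300 and 12900 CPM in EWAT, above every other library (4470 to 11000 CPM). RWAT 1 was the nearest. Lyz2 made up much of this sum, with a mean of 6692 CPM in EWAT. The mean log2 CPM of the 24 genes did not separate EWAT (7.23, 7.28 and 7.42) from the other libraries (6.51 to 7.57). DESeq2 called 7 of the 24 higher and 3 lower. The summed level of the lipid-associated list was 20200, 17700 and 38200 CPM in EWAT, and overlapped with RWAT 2 (18500 CPM). Spp1, which encodes osteopontin, was at 4510, 2130 and 4580 CPM in EWAT, 12.4 to 118 CPM in IWAT and 2120 CPM in RWAT 2 (3.42 ± 0.65, edgeR adjusted p = 0.0367). Arg1, arginase 1 of alternatively activated macrophages, was at 3110, 618 and 830 CPM against 6.28 to 455 CPM, with EWAT 1 far above the rest (4.02 ± 0.64, edgeR adjusted p = 0.0174). Olr1, a receptor for oxidized low-density lipoprotein, was at 59.6, 31.5 and 16.8 CPM against 0.523 to 11.6 CPM.

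Bcl2a1b, an antiapoptotic gene of leukocytes with near-identical copies, was at 106, 113 and 95.7 CPM in EWAT against 2.81 to 40.1 CPM (2.94 ± 0.29, edgeR adjusted p = 0.00139). Cx3cr1, the fractalkine receptor, was at 42.7 to 59.9 CPM against 2.72 to 31.2 CPM, and Lyz2, lysozyme of myeloid cells, at 5420 to 8220 CPM against 1300 to 4310 CPM. Fabp7, Car6 and Naip1 were also higher, with mean levels 5.38 to 6.54 times those of the other depots. Naip1 and Lyz2 have close paralogs, so their counts are uncertain. Lyve1, of resident and lymphatic cells, went the other way without being called (5.47 to 25.7 CPM against 26.8 to 156 CPM, edgeR adjusted p = 0.0846). EWAT was also the depot with 1 library very low in adipocyte transcripts, and the part of that in these values was not tested. Without EWAT 1 the calls of Arg1, Olr1, Spp1, Fabp7, Car6, Naip1, Msr1, Cx3cr1, Lyz2 and Cd9 all ended, and only Bcl2a1b kept its call with each library left out. Arg1 also lost it without IWAT 2, Fabp7 without EWAT 3, Naip1 without any of 5 libraries in all, and the others without any of 7 to 11, Olr1 excepted.

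Chemokine genes gave 1 call of 22, Cxcl16, which encodes a ligand of macrophages and T cells. It was at 67.2, 65.4 and 69.2 CPM in EWAT, 26.3 to 50.6 CPM in BAT, 8.97 to 15.2 CPM in IWAT and 14.7 to 42.8 CPM in RWAT (1.49 ± 0.27, edgeR adjusted p = 0.0304). Its call ended without any EWAT library, IWAT 1, IWAT 2 or RWAT 1. Interferon response genes lay low in EWAT against the mean, where all 24 had a negative fold change (median -1.4). The list median was -2.4 against BAT, -1.1 against RWAT and -0.5 against IWAT, with 0 called against RWAT or IWAT. Against the mean, 18 of the 24 were lower at an unadjusted p under 0.05, 11 by DESeq2 and 0 by limma-voom, while edgeR called 1. That gene was Oas2, an antiviral oligoadenylate synthetase, at 10.5, 16.8 and 12.4 CPM against 21 to 91.2 CPM (-1.48 ± 0.29, edgeR adjusted p = 0.0403), and its call ended without any of 8 libraries. The list's sum was 500 to 1000 CPM in EWAT, 987 CPM in BAT 2 and 5210 CPM in BAT 1, so the depots overlapped. All 24 cell cycle genes had a positive fold change (median 0.71) with 0 called by edgeR, DESeq2 or limma-voom and 3 higher at an unadjusted p under 0.05. Their sum overlapped between EWAT (1170 to 2210 CPM), RWAT (899 to 2020 CPM) and BAT (841 to 2110 CPM) and was 222 to 897 CPM in IWAT.

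In the lists of adipocyte markers, adipokines, fatty acid and triglyceride synthesis and thermogenic genes, edgeR called no member against the mean. Among 20 adipocyte markers the median was -1.3 and no value was above 0, with 4 lower at an unadjusted p under 0.05 and 0 called by DESeq2 or limma-voom. Adiponectin (Adipoq) was at 34.8, 1010 and 301 CPM in EWAT 1 to 3 and between 173 and 2320 CPM elsewhere. Leptin (Lep) was at 13, 785 and 308 CPM against 138 to 1380 CPM. EWAT 1 was the lowest of all 12 libraries for both, and the other 2 lay inside the range of the other depots. Among 18 adipokine genes 0 were called by edgeR (2 higher and 3 lower at an unadjusted p under 0.05, 1 and 1 by DESeq2, 0 by limma-voom). Among 23 genes of fatty acid and triglyceride synthesis, with a median of -0.98, 0 were called (6 lower unadjusted, 3 by DESeq2, 0 by limma-voom). Acacb, which makes malonyl-CoA at mitochondria, was at 4.14, 21.5 and 16.6 CPM against 20.9 to 184 CPM. The 16 tested thermogenic genes had a median of -1.7 with 0 called (8 lower unadjusted, 6 by DESeq2, 0 by limma-voom), while their sum, 60 to 83.9 CPM in EWAT, was 2950 CPM in BAT 1 alone and 68.9 to 251 CPM in the other 8 libraries.

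Smaller numbers of genes were called in 3 signalling lists. In the Wnt pathway, Wnt4, a ligand of mesothelial and gonadal development, was at 12.6, 21.5 and 10.8 CPM against 0.915 to 8.37 CPM, and Sfrp1, a secreted Wnt inhibitor, at 28.8, 40.3 and 20.3 CPM against 3.65 to 15.7 CPM. Wnt16 was lower, at 0.19 to 0.343 CPM against 0.546 to 4.92 CPM, and the other 28 of 31 tested genes were not called (list median -0.44). In the whole Wnt list, 2 genes were higher and 10 lower at an unadjusted p under 0.05. DESeq2 called 2 higher and 7 lower, and limma-voom 1 and 0. Against IWAT alone, edgeR called 2 higher and 9 lower. Of 24 retinoid genes tested 1 was called higher and 0 lower (list median -0.16). Aldh1a2, the retinoic acid-forming enzyme, was at 12.4, 12.4 and 27.1 CPM with up to 14.5 CPM in IWAT and was not called (edgeR adjusted p = 0.0588). Of 17 steroid enzymes and receptors, Akr1c18 was the only gene called. The edgeR adjusted p of Wnt4, Sfrp1 and Wnt16 were 0.0278, 0.0367 and 0.026, and each of these calls ended without any 1 of the EWAT libraries. They ended also without IWAT 2 for Sfrp1 and Wnt16, without RWAT 3 for Wnt4 and Sfrp1, and without BAT 3, IWAT 1 or RWAT 1 for Sfrp1.

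Markers of other cell types were counted in the same way. Endothelial genes gave 1 call of 14, Tek, the angiopoietin receptor, at 18.1, 17.1 and 12.5 CPM against 23.9 to 87.2 CPM (-1.53 ± 0.23, edgeR adjusted p = 0.0151), which ended without EWAT 1 or EWAT 3. Lymphatic genes gave 1 of 7, Reln, at 0.381 to 0.799 CPM against 1.17 to 13.2 CPM, which ended without any of 7 libraries. Mural and smooth muscle genes gave 2 of 12, both higher. Cnn1 was at 26.2, 25.7 and 4.05 CPM and Actg2 at 43.6, 43.9 and 7.91 CPM in EWAT, with 5.17 and 11.8 CPM as the highest values elsewhere, so EWAT 3 overlapped for both. Their calls ended without any of 7 and 8 libraries. Keratin 14 (Krt14) was 1 of 4 ductal epithelium genes tested, at 1.31 to 10.3 CPM against 0 to 2.09 CPM, and its call ended without EWAT 3. Of 11 sympathetic neuron genes Hand2 was the only one called. Skeletal muscle (15 tested, median -4.0 against the mean and -7.2 against RWAT, 11 lower unadjusted, 7 by DESeq2), Schwann cell (11 tested, 1 higher and 5 lower unadjusted, 4 lower by DESeq2), mast cell (9 tested, 5 lower unadjusted, 1 by DESeq2), B cell (14 tested, 2 higher unadjusted, 0 by DESeq2) and T and natural killer cell genes (17 tested, 1 higher unadjusted, 0 by DESeq2) gave 0 calls by edgeR and 0 by limma-voom. Of 10 seminal vesicle and prostate genes 9 were at 0 in all EWAT libraries and 0 passed the filter, and of 15 testis and 15 kidney and adrenal genes 2 and 1 passed, with 0 called and 0 at an unadjusted p under 0.05.

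**Figure D4:**
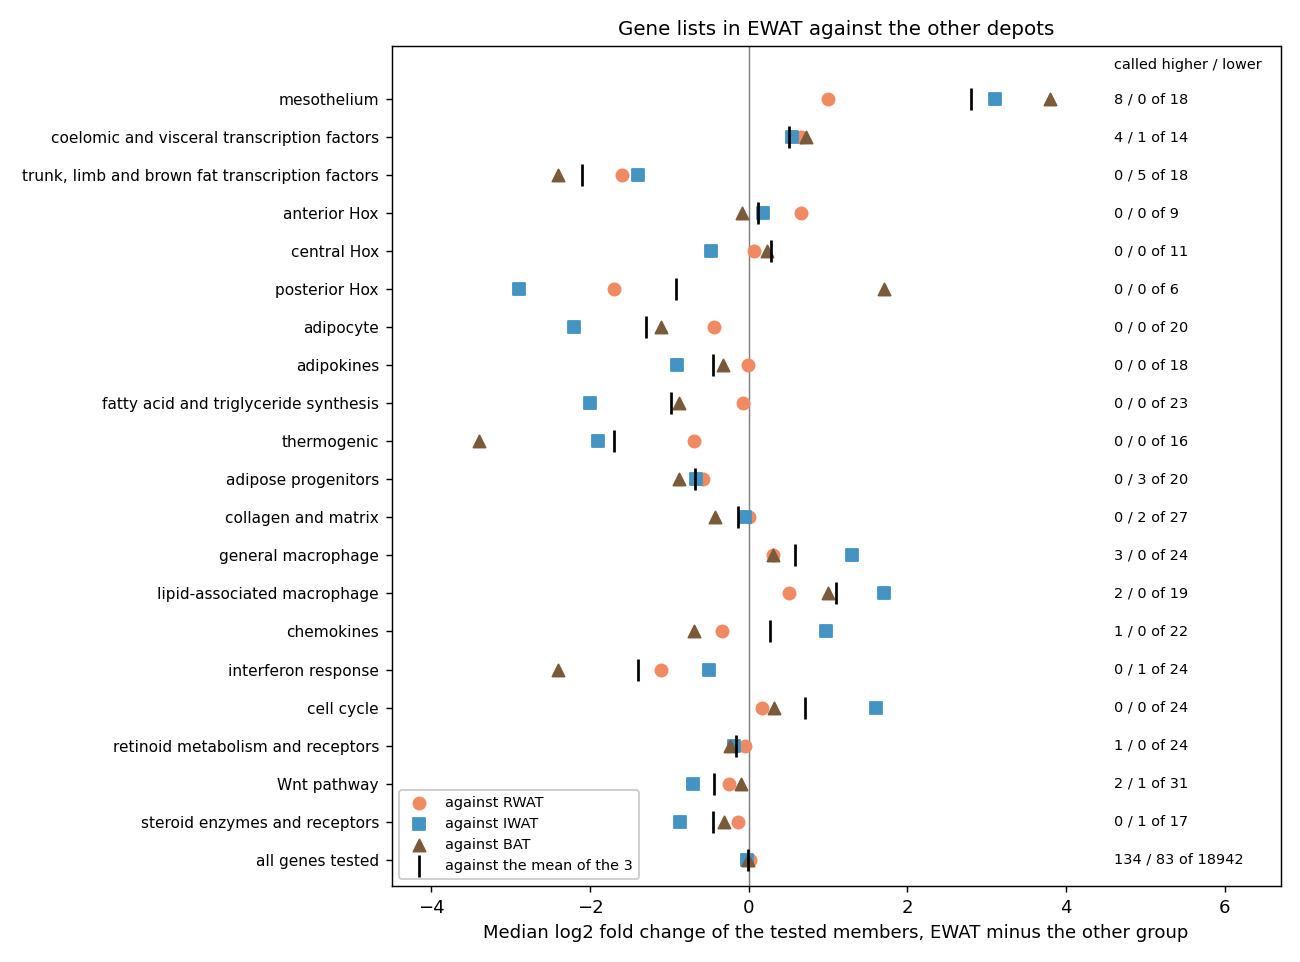
Median log2 fold change (horizontal axis) of the tested members of 20 gene lists and of all genes, in EWAT against RWAT (circles), IWAT (squares), BAT (triangles) and their mean (bars), with the members called against the mean at the right. Against the mean, mesothelial genes have the highest median of these 20 lists, 2.8, and the trunk, limb and brown fat factors the lowest, -2.1; the skeletal muscle list, not plotted, has a median of -4.0.

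**Figure D5:**
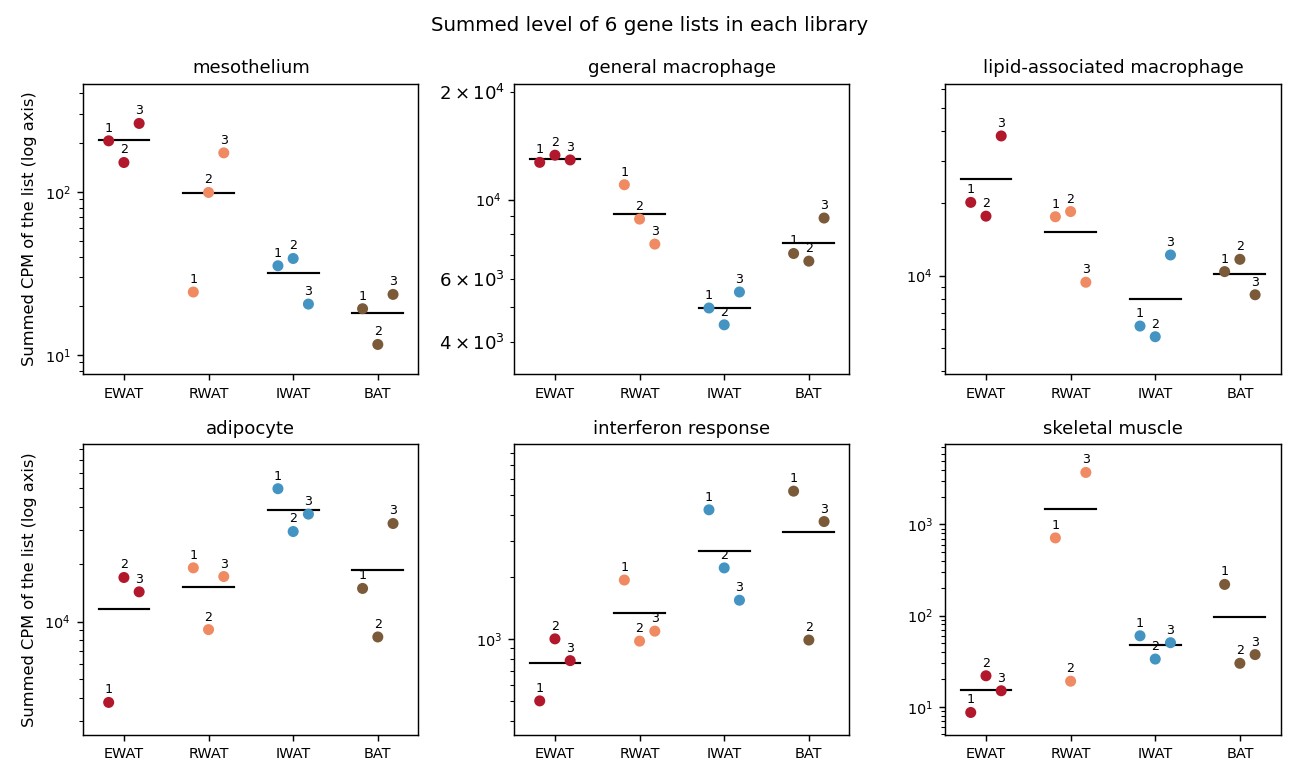
Summed CPM (log axis) of 6 gene lists in each library, numbered by replicate, with a line at the depot mean. The general macrophage sum is 12700 to 13300 CPM in EWAT and at most 11000 CPM elsewhere. The mean log2 CPM of that list, not plotted, is 7.23 to 7.42 in EWAT and 6.51 to 7.57 elsewhere. EWAT 1 has the lowest adipocyte sum (3770 CPM), and RWAT 1 and RWAT 3 have the highest muscle sums.

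Against RWAT, the other visceral white depot, few differences passed the test. Tbx15 was the 1 gene called lower (0.00528% of genes tested) and 0 were called higher by edgeR, while 573 were lower and 339 higher at an unadjusted p under 0.05. DESeq2 called 130 genes and limma-voom 0. Of the libraries left out singly, RWAT 2 changed this count most. RWAT 2 was the RWAT library nearest to EWAT for Tbx15, Pi16 and Dpp4. It also had a skeletal muscle sum of 19.1 CPM, against 712 and 3720 CPM in RWAT 1 and RWAT 3. The part of either in the change was not tested. Without RWAT 2 edgeR called 79 genes, 3 higher and 76 lower, and 10 genes were called the same way against the mean and against each depot. Tbx15, Zfhx4, Islr2, Mmp3, Pcdh20, Pi16 and Radil were among the lower of these, and Rpp25 and Tmem108 were higher. In that fit the log2 fold change against RWAT was -2.28 for Zfhx4 and -4.46 for Pi16 (edgeR adjusted p = 0.0144 and 0.0367). Without EWAT 1 or EWAT 2, 0 genes were called against RWAT.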

How the data were processed

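RNA was measured in 12 libraries, 3 per depot: total RNA depleted of ribosomal RNA, read as single ends of 75 bp, per the labels' protocols. The submitters' processing notes name Trimmomatic 0.36, RSEM 1.3.0, DESeq2 1.10.1 and the build GRCm38.p4. Aligner and annotation release are not given in the sources used here. Per the file headers, the deposited tables hold RSEM expected counts (estimated reads per gene, not normalized) and the authors' TPM, which was not used for tests. Of 47729 genes, 47224 had their ID in GENCODE M21, the source of symbols and positions; promoter windows are from RefSeq on GRCm38.p6.

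Expected counts were rounded, passed through edgeR 4.0.16's filterByExpr with a minimum of 10, which left 18942 genes, and scaled by TMM factors of 0.846 to 1.14. All 12 libraries entered 1 edgeR quasi-likelihood fit with depot as the factor, and two-sided F tests of contrasts were adjusted by Benjamini-Hochberg over every gene tested (threshold 0.05). The common biological coefficient of variation came to 0.385. R 4.3.3, DESeq2 1.42.0 and limma 3.58.1 gave the alternatives. The test was also run on simulated counts in which BAT, IWAT and RWAT shared a common mean. There edgeR recovered 24% of 2-fold and 92% of 16-fold changes against the mean, with 7 false calls. The depots of these data differ from each other, so those rates do not carry over to them. The 34 gene lists (620 of 622 memberships matched) were described by counts and medians, with no list test. Named genes were up to 15 of the most changed called genes on each side whose higher group reached 5 CPM, with no overlap of libraries and a proper symbol, then up to 4 members of each list with the smallest p, 12 fixed genes, and genes called against every depot. Lhx8, Osr2, Krt7, Nkain4, Bnc1, Slpi, Ucp1, Rn7s1, Wt1os, Tmem108 and those said so in the text were named after their values were seen. Some genes that the rule names are not reported here. Genes and lists were chosen with earlier results of these data known. Total counts per library set the floor of 3 counts; reads carry no described molecular identifiers, so floors cover counting error only. The alternatives were other scalings, filters and tools, a replicate block, a fold threshold, BAT left out of the mean, and libraries left out singly or in pairs; the earlier form of the quasi-likelihood dispersion was added after seeing the data.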

Additional observations from a re-analysis of the deposited data

How the results depend on the processing

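With other settings, genes called against the mean (217) numbered 1042 by DESeq2 (462 higher and 580 lower, including 213 of the 217), 66 by limma-voom, 12 in a fit of 2 groups without depot coefficients, 69 without BAT 2 and BAT 3, 40 without RWAT 1 and RWAT 3, 33 without EWAT 1 and BAT 2, and 37 to 395 with 1 library left out. Against BAT (27) they numbered 477 by DESeq2, 16 by limma-voom and 16 with the legacy dispersion, 63 with no filter on low counts, 230 without BAT 2 and BAT 3 (1 higher and 229 lower), 5 without EWAT 1 and BAT 2, and 3 to 247 with 1 library left out. Against IWAT (2082) they numbered 3780 by DESeq2, 1071 without EWAT 1 and BAT 2, 1141 without RWAT 1 and RWAT 3, and 55 to 2769. Against RWAT (1) they numbered 130 by DESeq2, 0 by limma-voom, 2 with RLE size factors, 2 with no filter, 0 without EWAT 1 and BAT 2, and 0 to 79. Genes called in all 4 contrasts (1) numbered 62 by DESeq2, 0 by limma-voom, 2 with RLE size factors, 2 with no filter, 0 without EWAT 1 and BAT 2, and 0 to 10. The cause of these changes was not tested. Where libraries were left out, the number of samples was smaller as well.

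Replicate numbers did not pair EWAT with other depots: correlations of deviations between same-numbered libraries ran from -0.359 to 0.12. Between BAT and RWAT they were 0.182, 0.429 and 0.199. Blocking on the replicate number left 59 genes called against the mean, 13 against BAT, 1064 against IWAT, 1 against RWAT and 1 in all 4 contrasts. Of the 74 named genes that were called, 36 were called with the block; those not called included Pi16 (edgeR adjusted p = 0.0771), Dpp4 (0.078), Arg1 (0.0676), Spp1 (0.0812), Slpi (0.0731) and Gata6 (0.08).

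The 74 kept their direction under every alternative that tested them, but many were no longer called: 35 were called by limma-voom (Wt1 was not, adjusted p = 0.0697), 9 in the fit of 2 groups and 24 without EWAT 1. Tbx15, Zfhx4, Hand2 and Dsg2 were called against the mean under each of 25 alternatives.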
